A study of Mus musculus with 10 samples.

Results

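Sprouty and SPRED proteins, the phosphatase Dusp6 and the ETS factors of the PEA3 group form a set of genes that FGF signalling switches on through ERK. Their mRNA levels were compared in the pinna prominence of WT and mEC1dup/dup mouse embryos at E14.5, a mid-gestation stage. The 9 genes were chosen by name: *Spry1*, *Spry2*, *Spry4*, *Spred1*, *Spred2*, *Dusp6*, *Etv1*, *Etv4* and *Etv5*. Each was found among the 53465 genes of the count table, and all 9 were among the 16426 genes with enough counts to be tested.

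An FGF that binds its receptor activates RAS, which starts a relay of RAF, MEK and ERK kinases. ERK then raises transcription of its own inhibitors and of *Etv* genes, so the mRNA of these genes is widely read as a measure of ERK activity in embryonic tissue. FGF signalling between epithelium and mesenchyme takes part in the outgrowth of facial and limb buds, and the pinna grows from such buds around the ear canal.

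The study asked how extra copies of mEC1, an enhancer of the homeobox gene *Hmx1*, change the developing outer ear. WT embryos carried the normal locus. The mEC1dup/dup embryos, made in C57BL6 mice, carried an inserted additional mEC1 on both alleles, so the insertion was not limited to one tissue. Each genotype had 5 replicates, which were independent embryos, and whole micro-dissected pinna prominences were sequenced in bulk. In bulk RNA, fewer cells of a type and less RNA per cell cannot be told apart.

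Total counts were alike, from 17536112 to 18265354 per WT library and from 17461544 to 18462073 per mEC1dup/dup library. *Hmx1* checked the labels: it averaged 26.6 ± 3.0 CPM (SD, n = 5) in WT and 66.2 ± 9.11 in mEC1dup/dup, with no overlap. CPM here is the read count of a gene scaled to the TMM-normalised library size. The log2 fold change of *Hmx1* was 1.31 (SE 0.10) with an adjusted p of 0.000127 by edgeR's quasi-likelihood test. The genotypes also differed in *Xist*, the RNA of the inactive X chromosome, with at most 5 counts in each WT library against 12812, 19040, 18165, 2096 and 0 in mEC1dup/dup replicates 1 to 5. An inactive X is a trait of female cells, so by *Xist* sex nearly followed genotype, and their effects cannot be told apart. Embryonic globins made up 18.4 to 23.3% of globin counts in WT and 32.5 to 35.6% in mEC1dup/dup. With *Xist* as a covariate the log2 fold change of *Hmx1* was 1.04 (adjusted p = 0.017 in edgeR). With the globin share, which also differs with genotype, it was 0.34 (adjusted p = 0.921). Markers of mesenchyme, cartilage, epidermis and muscle were present in every library. Neuron markers varied between embryos, with a mean log2 CPM over 5 markers of 3.19 to 6.71 in WT and 4.05 to 5.58 in mEC1dup/dup. The mean log2 CPM of 10 epidermal markers ranged from 6.58 to 7.46 in WT and from 6.07 to 6.43 in mEC1dup/dup, and 6 of the 10 were called lower, beside 1.81% of all tested genes. The part of these differences in the results below was not tested, except by the fits named with them.

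No gene of the set passed the test in either direction. Among all tested genes, 1.81% were called lower and 0.834% higher in mEC1dup/dup (2.64% in all), where a call needed a mean log2 CPM of 1 or more and a Benjamini-Hochberg adjusted p no higher than 0.05. Of the 9 genes, 0 had an unadjusted p under 0.05 in edgeR (0 to 2 over the alternative fits), against 16.2% of tested genes. DESeq2 called 0 of the 9, beside 5.06% of all tested genes. Limma-voom called 0 of the 9 without sample weights (2.4% of all tested genes) and 0 with them (5.44%). No gene had groups without overlap, which 5.07% of tested genes had. The log2 fold change was below 0 for 8 of 9, against 51.2% of tested genes, with a median of -0.06 beside -0.0041 over all tested genes. With *Xist* as a covariate 5 of 9 were below 0, and with the share of embryonic globins as covariate 1 of 9. Both covariates differ with genotype, and these fits called 3 and 0 of all tested genes. The signs there cannot be assigned to genotype or to the covariate. A fit without the 4 mEC1dup/dup libraries that held *Xist*, chosen after seeing the data, leaves 1 mEC1dup/dup library, which is assumed to vary as WT does. There the fold change was below 0 for only *Spred1* and *Etv1* of the 9. The 95% intervals of the 9 genes reached from -18.9% at the lowest to 12.2% at the highest, so each interval excluded the size of change seen for *Hmx1*.

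**Figure D1:**
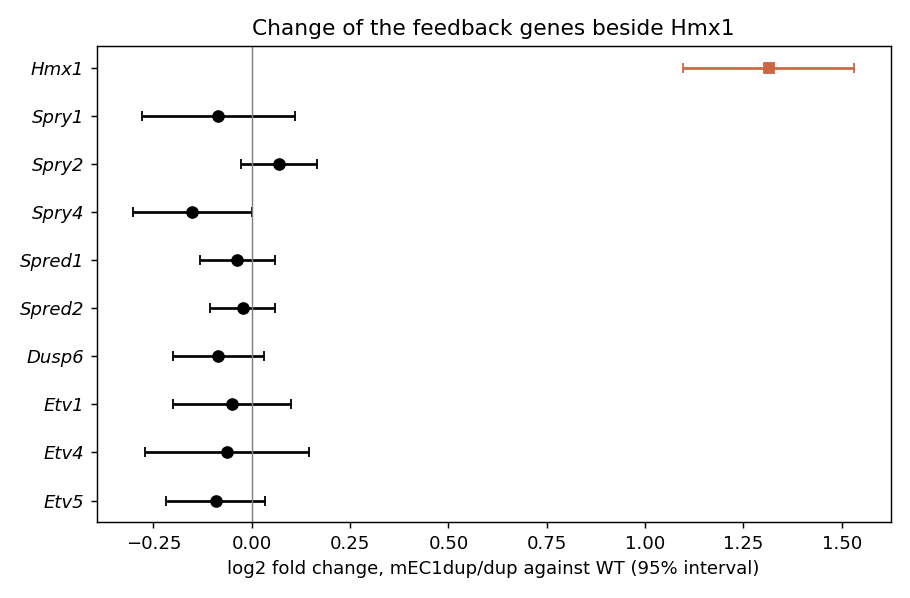
Log2 fold change (mEC1dup/dup against WT) of *Hmx1* and of the 9 feedback genes, with 95% intervals from edgeR's quasi-likelihood fit of 5 embryos per genotype. All 9 intervals include 0 and end between -0.30 and 0.17, whereas that of *Hmx1* runs from 1.10 to 1.53.

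The upstream DNA of these genes is shown because the set itself holds ETS factors, whose binding letters were searched there. RefSeq annotation of the GRCm38.p6 build gave the 250 bases before the start of 7 of the 9 genes, in 9 promoters, since *Etv1* and *Etv5* had 2 each. *Spry4* and *Etv4* were not in that table. The letters CGGAAG, a core bound by many ETS factors, were searched on both strands and stood in 3 of the 9 promoters, those of *Dusp6*, *Spred1* and *Spred2*, against 13.6% of 32841 promoters of the same length. The letters CAAGTG, a core bound by HMX and NKX2 homeodomain proteins, stood in 1 of the 9, that of *Spry2*, against 11.6% of all. Both strings were chosen after the expression values were seen, they do not overlap each other here, and a match is a description of the letters only. The 4 promoters with a match are printed from 5′ to 3′ on the strand of the gene, with the matched letters (or their reverse complement) in capitals. In GRCm38.p6 they lie at chr10:99262981-99263230 (+, *Dusp6*), chr2:117120821-117121070 (+, *Spred1*), chr11:19924192-19924441 (+, *Spred2*) and chr14:105896820-105897069 (-, *Spry2*).
Dusp6: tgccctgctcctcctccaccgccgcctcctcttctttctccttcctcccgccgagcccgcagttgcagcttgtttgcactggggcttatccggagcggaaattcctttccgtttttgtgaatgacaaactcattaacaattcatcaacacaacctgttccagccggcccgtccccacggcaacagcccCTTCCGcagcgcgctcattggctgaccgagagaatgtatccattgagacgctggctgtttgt
Spred1: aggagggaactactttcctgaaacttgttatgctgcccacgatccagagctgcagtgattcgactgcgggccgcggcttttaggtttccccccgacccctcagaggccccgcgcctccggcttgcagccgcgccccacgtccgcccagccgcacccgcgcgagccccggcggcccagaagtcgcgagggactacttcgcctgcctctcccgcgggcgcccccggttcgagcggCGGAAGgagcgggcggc
Spred2: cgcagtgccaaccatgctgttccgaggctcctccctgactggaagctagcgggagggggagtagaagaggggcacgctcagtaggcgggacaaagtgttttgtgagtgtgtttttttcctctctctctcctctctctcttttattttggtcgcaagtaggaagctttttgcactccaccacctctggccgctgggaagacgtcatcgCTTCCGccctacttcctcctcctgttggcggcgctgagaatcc
Spry2: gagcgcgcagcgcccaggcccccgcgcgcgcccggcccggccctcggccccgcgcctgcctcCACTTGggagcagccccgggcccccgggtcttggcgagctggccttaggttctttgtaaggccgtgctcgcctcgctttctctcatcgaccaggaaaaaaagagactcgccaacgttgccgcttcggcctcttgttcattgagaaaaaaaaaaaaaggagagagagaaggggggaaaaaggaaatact
The ETS core began 62 bases before the start in *Dusp6*, 17 in *Spred1* and 43 in *Spred2*, and the HMX core 188 bases before it in *Spry2*.

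Sprouty proteins block the step from the receptor to RAS and RAF. *Spry1* (chr3:37693897-37698755, GRCm39) measured 45.4, 40.5, 42.5, 38.2 and 46.6 CPM in WT replicates 1 to 5 and 37.8, 40.1, 36, 36.7 and 50.4 CPM in mEC1dup/dup replicates 1 to 5. Of the mEC1dup/dup embryos, 3 lay below the lowest WT embryo, whereas replicate 5 lay above the highest. The log2 fold change was -0.08 (SE 0.09, 95% interval -0.28 to 0.11, adjusted p = 0.707 by edgeR's quasi-likelihood test). Without mEC1dup/dup replicate 5 it was -0.18, with an unadjusted p of 0.0194 and an adjusted p of 0.21 in the same edgeR test, and over all embryos left out in turn it ran from -0.18 to -0.049. It turned to 0.17 with *Xist* as a covariate and to 0.53 with the share of embryonic globins (adjusted p = 0.644 and 0.899 in edgeR). Both covariates differ with genotype.

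*Spry2* (chr14:106128766-106136446) was the exception in sign. It measured 71.2, 70.6, 66.7, 68.7 and 65.0 CPM in WT and 72.4, 71.4, 75.2, 65.7 and 74.3 CPM in mEC1dup/dup. In 4 of 5 mEC1dup/dup embryos it was above the highest WT value, and replicate 4 lay within the WT range. Its log2 change, mEC1dup/dup against WT, was 0.07 (SE 0.04, 95% interval -0.03 to 0.17, adjusted p = 0.499 in edgeR), and without mEC1dup/dup replicate 4 it was 0.10, with an adjusted p of 0.27 in edgeR and no overlap between the groups, which 6.96% of the genes tested without that embryo had.

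*Spry4* (chr18:38719300-38736025) came closest to the threshold. WT embryos had 40.4, 37.5, 35.6, 39.2 and 44.6 CPM and mEC1dup/dup embryos 35.1, 34.6, 35.6, 32.4 and 40.1 CPM. All mEC1dup/dup embryos but replicate 5 were below the WT minimum, replicate 3 by less than the rounding shown. A log2 fold change of -0.15 (SE 0.07) came with a 95% interval of -0.30 to 0.0003, an unadjusted p of 0.0504 and an adjusted p of 0.31 in edgeR. By p it was number 2672 among the 16426 tested genes. Without mEC1dup/dup replicate 5 it was -0.20, with an unadjusted p of 0.0126 and an adjusted p of 0.171 in edgeR, and with *Xist* as a covariate it was -0.023 (adjusted p = 0.97 in edgeR).

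SPRED proteins hold RAF inactive by bringing neurofibromin to RAS at the membrane. *Spred1* (chr2:116951524-117018277) had 160, 172, 160, 148 and 156 CPM in WT and 163, 149, 161, 156 and 147 CPM in mEC1dup/dup. *Spred2* (chr11:19874355-19974442) had 122, 129, 121, 115 and 122 CPM in WT and 121, 122, 120, 113 and 125 CPM in mEC1dup/dup. The ranges overlapped for both genes, with 1 mEC1dup/dup embryo of each below the WT minimum. The log2 fold changes were -0.04 for *Spred1* (SE 0.04, 95% interval -0.13 to 0.06, adjusted p = 0.752 in edgeR) and -0.02 for *Spred2* (SE 0.04, 95% interval -0.11 to 0.06, adjusted p = 0.826). As percentages, the interval of *Spred2*, the narrowest of the set, covered -7.09% to 4.27%.

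*Dusp6* encodes a cytoplasmic phosphatase that removes the activating phosphates from ERK. It measured 96.8, 88.4, 90.0, 83.4 and 86.3 CPM in WT and 88.3, 80.2, 85.0, 75.8 and 90.2 CPM in mEC1dup/dup, at chr10:99086564-99103361. The ranges overlapped, with 2 mEC1dup/dup embryos below the lowest WT embryo. For *Dusp6* the log2 fold change was -0.08 (SE 0.05, 95% interval -0.20 to 0.03, adjusted p = 0.488 in edgeR), an interval of -13.0% to 2.2%.

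*Etv1*, *Etv4* and *Etv5* encode the ETS transcription factors of the PEA3 group, which carry the ERK signal to other genes. *Etv1* (chr12:38828851-38920483) had 40.3, 38.7, 36.2, 30.2 and 36.2 CPM in WT and 35.8, 36, 33.2, 35.7 and 34.8 CPM in mEC1dup/dup. Every mEC1dup/dup value lay inside the WT range, and WT replicate 4 was the lowest embryo of all. The log2 fold change was -0.05 (SE 0.07, 95% interval -0.20 to 0.10, adjusted p = 0.789 in edgeR). Without WT replicate 1 it was -0.0096, and without WT replicate 4 it was -0.11 (adjusted p = 0.294 in edgeR), and the *Etv1* groups did not overlap, as 8.21% of the genes tested without that embryo did not.

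*Etv4* (chr11:101660568-101676197) was the most variable gene of the set. WT embryos were close together, at 33.2, 31.3, 31.0, 32.3 and 32.6 CPM, while mEC1dup/dup embryos spread over 22.7, 29.5, 31.2, 34.6 and 35.3 CPM. Of the mEC1dup/dup embryos, 2 were below the lowest WT embryo and 2 above the highest. In edgeR *Etv4* had a log2 difference of -0.06 (SE 0.10, 95% interval -0.27 to 0.15, adjusted p = 0.804), and without mEC1dup/dup replicate 1 it was 0.03.

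*Etv5* (chr16:22200052-22259662) had 119, 99.0, 107, 102 and 115 CPM in WT and 92.3, 105, 98.7, 103 and 109 CPM in mEC1dup/dup. The groups overlapped over most of their ranges, with 2 mEC1dup/dup embryos below the WT minimum. The log2 fold change was -0.09 (SE 0.06, 95% interval -0.22 to 0.03, adjusted p = 0.487 in edgeR).

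**Figure D2:**
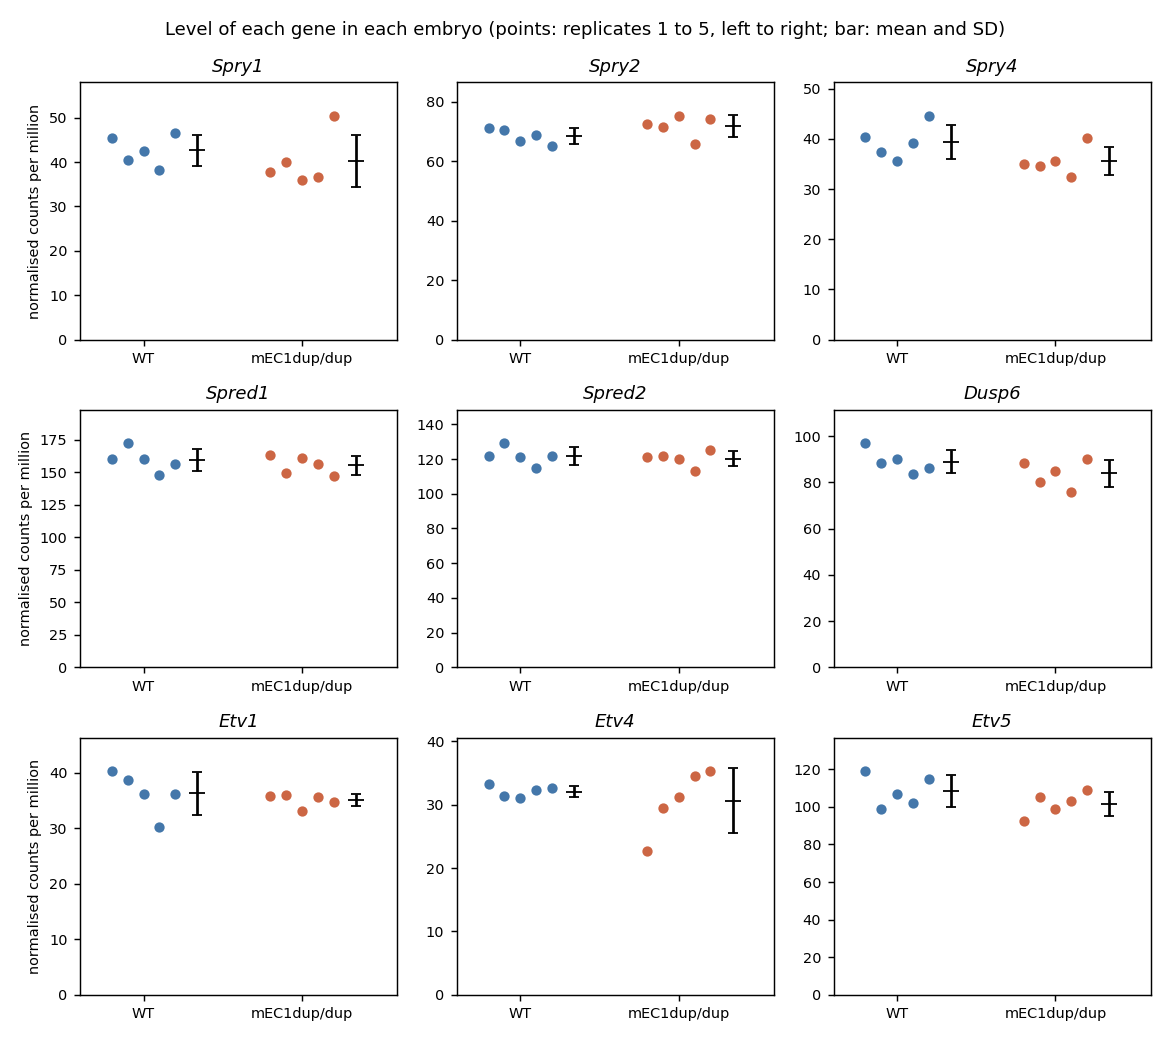
Normalised CPM of the 9 feedback genes in each of 5 WT (blue) and 5 mEC1dup/dup (orange) embryos, with black bars for the mean and SD. The groups overlap for all 9 genes. *Spry1* stands at 50.4 in mEC1dup/dup replicate 5 and *Etv4* at 22.7 in mEC1dup/dup replicate 1.

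The precision behind these values was that of well covered genes. Raw counts of the 9 genes ranged from 398 (*Etv4*) to 3100 (*Spred1*) per library. The SD of log2 CPM within genotypes had a median of 0.10 over the set, beside 0.12 over the 14084 tested genes with a log2 CPM of at least 1, and ran from 0.06 for *Spred2* to 0.18 for *Etv4*. The median size of the log2 fold change, sign aside, was 0.07 in the set and 0.08 in those genes. The neighbours on the other strand limit what the counts stand for in 5 of the 9 genes, since the library kits named for these data do not mark strand. Exons of annotated antisense genes covered 19% of the exon bases of *Spry1*, 11% of *Spry2*, 20.2% of *Dusp6* for the longer of its overlaps, 9.84% of *Etv4* and 8.47% of *Etv5*, and reads of the 2 strands cannot be told apart there. *Spry4*, *Spred1*, *Spred2* and *Etv1* had no such overlap.

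Levels of different genes were compared per kilobase of merged exons (CPM per kb). In WT, *Dusp6* was highest at 26.2 ± 1.47 CPM per kb (SD, n = 5), followed by *Spred1* at 20.5 ± 1.10 and by *Spred2*, whose embryos ranged from 18.9 to 21.1. *Etv5* at 14.4 ± 1.14, *Spry2* at 13.3 ± 0.50 and *Etv4* at 10.1 ± 0.29 lay in the middle of the order, still in CPM per kb. *Spry1* at 8.94 ± 0.72, *Spry4* at 5.98 ± 0.51 and *Etv1* at 2.60 ± 0.27 CPM per kb were lowest. The WT ranges of *Spred1* and *Spred2* overlapped, as did those of *Etv5* and *Spry2*, and all other neighbours in the order were apart in every WT embryo. In mEC1dup/dup the order was the same except that *Spry2* (13.9 ± 0.72 CPM per kb) stood before *Etv5* (13.5 ± 0.85), whose ranges overlapped, and the ranges of *Etv4* and *Spry1* overlapped too. The values depend on the length used: for the longest transcript in place of merged exons, *Etv1* in WT was 5.36 CPM per kb, and the order of the 9 genes in WT was the same. On that length the WT ranges of *Etv4* and *Spry1* overlapped and those of *Etv5* and *Spry2* did not, and in mEC1dup/dup *Etv5* stood before *Spry2* as in WT, but *Spred2* before *Spred1*.

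Whether the genes rose and fell together from embryo to embryo was read from deviations of log2 CPM from the genotype means over the 10 embryos. Of 36 pairs, 26 had a Pearson r above 0, the median r was 0.298, and r ran from -0.482 (*Etv5* with *Spred1*) to 0.733 (*Etv5* with *Spry1*). No pair passed an adjusted p of 0.05 over the 36 pairs in a two-sided exact permutation test within genotypes, which has 14400 arrangements, and the smallest adjusted p was 0.32. An unadjusted exact p under 0.05 was found for 4 pairs. *Etv5* with *Spry1* had r = 0.733 and rho = 0.745 (exact p = 0.02 and 0.0241), and r = 0.769 without the 2 embryos farthest from the median of *Etv5*. *Etv4* with *Etv5* had r = 0.616 and rho = 0.636 (exact p = 0.0189 and 0.0565), but r = 0.266 without the 2 farthest embryos. *Dusp6* with *Spry2* had r = 0.718 and rho = 0.745 (exact p = 0.0321 and 0.0287), and r = 0.437 without the 2 farthest. *Spry1* with *Spry4* had r = 0.714 and rho = 0.442 (exact p = 0.0356 and 0.231). It rested on its own 2 farthest embryos, mEC1dup/dup replicate 5 and WT replicate 5, with r = 0.113 without them. Within genotypes, *Etv5* and *Spry1* had r = 0.902 in WT and 0.693 in mEC1dup/dup, each over 5 embryos. An r below 0 was found for *Etv4* with 5 of the other genes and for *Spred1* with 4 of them (*Spry1*, *Spry4*, *Etv4* and *Etv5*).

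**Figure D3:**
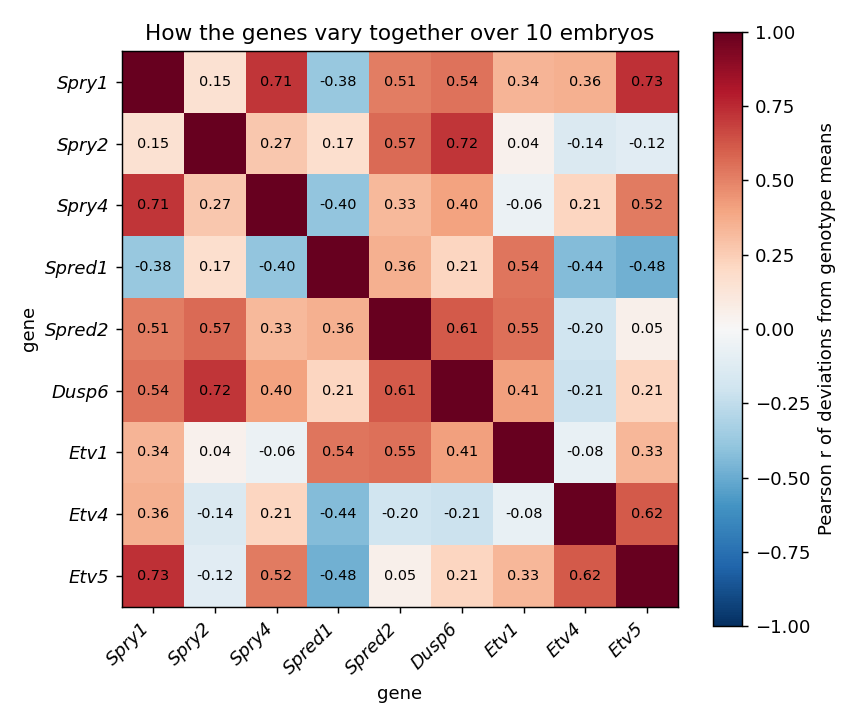
Pearson r between each pair of the 9 genes, from deviations of log2 CPM from the genotype means in 10 embryos. Most pairs are positive (26 of 36, red), *Etv5* with *Spry1* is highest at 0.73, and *Spred1* with *Etv5* is lowest at -0.48.

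The mean standardized log2 CPM of the 9 genes gives each embryo a place. WT replicates 1 to 5 stood at 0.909, 0.475, 0.035, -0.642 and 0.399, and mEC1dup/dup replicates 1 to 5 at -0.413, -0.307, -0.225, -0.794 and 0.564. The genotypes overlapped. Among mEC1dup/dup embryos replicate 5, the library with 0 *Xist* counts, stood highest, above 4 of the 5 WT embryos, and WT replicate 4 stood below 4 of the 5 mEC1dup/dup embryos. Over the 10 embryos, the genes whose log2 CPM was most like this mean were *AI429214* (r = 0.934), *Dpp9* (0.926), *Creb3l1* (0.916), *Rxra* (0.903) and *Ap1g2* (0.899). With genotype means removed they were *Mcm7* (r = 0.952), *Cd74* (0.951), *Gga1* (0.946), *Rela* (0.942) and *Fam162a* (0.938). These are the highest correlations among 14084 genes over 10 libraries and are given as a description.

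The rest of the pathway gave no call in the main fit either. Of 85 listed genes of FGF signalling outside the set, 76 were tested, 0 were called lower and 0 higher in edgeR, and 14 (18.4%) had an unadjusted p under 0.05, beside 16.2% of all tested genes. DESeq2 and limma-voom with sample weights called 3 each, *Fos*, *Mapk3* and *Ksr1*, all lower, where these fits called 5.06% and 5.44% of all tested genes. Limma-voom without weights called 0 of them and 2.4% of all tested genes.

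Of 22 genes of the FGF family, 16 were tested, 12 of them below 0, with a median log2 fold change of -0.12. Most encode secreted ligands, but *Fgf11*, *Fgf12*, *Fgf13* and *Fgf14*, which are in these counts, encode intracellular factors. *Fgf20*, a ligand of skin and inner ear primordia, was at 0.618 ± 0.24 CPM in WT and 1.03 ± 0.36 in mEC1dup/dup (log2 fold change 0.73, SE 0.33, adjusted p = 0.299 in edgeR). *Fgf6*, a ligand of muscle precursors, was at 7.15 ± 1.46 and 4.97 ± 1.06 CPM (log2 fold change -0.52, SE 0.18, adjusted p = 0.15). In the same libraries 3 of 10 skeletal muscle markers were called lower, beside 1.81% of all tested genes, and the median log2 fold change of the 10 was -0.44. Only *Myod1* (0.09) and *Myog* (0.12) of the 10 were above 0, and neither was called. *Fgf4*, known from the limb bud ridge, was at under 1 CPM in both genotypes (log2 fold change -0.58, SE 0.52, adjusted p = 0.651). *Fgf8*, the other classic ligand of facial epithelium, did not have enough counts to be tested.

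Receptors and co-receptors (8 of 10 tested) had a median log2 fold change of -0.03. *Fgfr3* had 68.0 ± 14.3 CPM in WT and 53.0 ± 15.7 in mEC1dup/dup (log2 fold change -0.36, adjusted p = 0.405 in edgeR), and without mEC1dup/dup replicate 1 it was -0.21, without WT replicate 3 -0.23. Of 7 cartilage markers in these libraries 0 were called, beside 2.64% of all tested genes, and their median log2 fold change was -0.42. Only *Sox9* (0.19) of the 7 was above 0. The part of these markers in the *Fgfr3* value was not tested. For *Flrt3*, a membrane partner of FGF receptors, the log2 fold change was 0.13 (adjusted p = 0.32 in edgeR), and for *Fgfr2* -0.10 (adjusted p = 0.532).

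In the RAS-ERK cascade all 23 genes were tested, with a median log2 fold change of 0.004 and 11 below 0. *Mapk3*, which encodes ERK1, came nearest to a call: from 123 to 140 CPM in WT and from 112 to 123 in mEC1dup/dup, with a log2 fold change of -0.16 (SE 0.04, adjusted p = 0.0632 in edgeR). The scaffold gene *Ksr1* had 51.0 ± 4.52 CPM in WT and 42.8 ± 4.03 in mEC1dup/dup, a log2 fold change of -0.25 (SE 0.08, adjusted p = 0.10), and its relative *Ksr2* one of 0.36 (SE 0.24, adjusted p = 0.515), which was 0.59 without WT replicate 5. For both *Mapk3* and *Ksr1*, 4 of 5 mEC1dup/dup embryos were below the lowest WT embryo.

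Other inhibitors of the pathway (13 of 14 tested) had a median log2 fold change of 0.01. *Dusp9*, another ERK phosphatase, was at 0.16 on that scale (adjusted p = 0.37 in edgeR), *Spred3* at 0.14 (adjusted p = 0.465) and *Il17rd*, a membrane inhibitor of FGF signalling also called *Sef*, at 0.13 (adjusted p = 0.293).

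Other response genes, all 16 tested, had a median log2 fold change of -0.04 with 9 below 0. *Fos*, an immediate early gene, ranged from 5.04 to 6.85 CPM in WT and from 2.75 to 4.96 in mEC1dup/dup, so that its groups did not overlap. It was the only such gene among the 76, beside 5.07% of all tested genes. Its log2 fold change was -0.58 (SE 0.17) with an adjusted p of 0.0855 in edgeR. *Egr2* and *Junb*, of the same kind, were at -0.41 (SE 0.19, adjusted p = 0.308) and -0.34 (SE 0.12, adjusted p = 0.166) on the log2 scale.

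**Figure D4:**
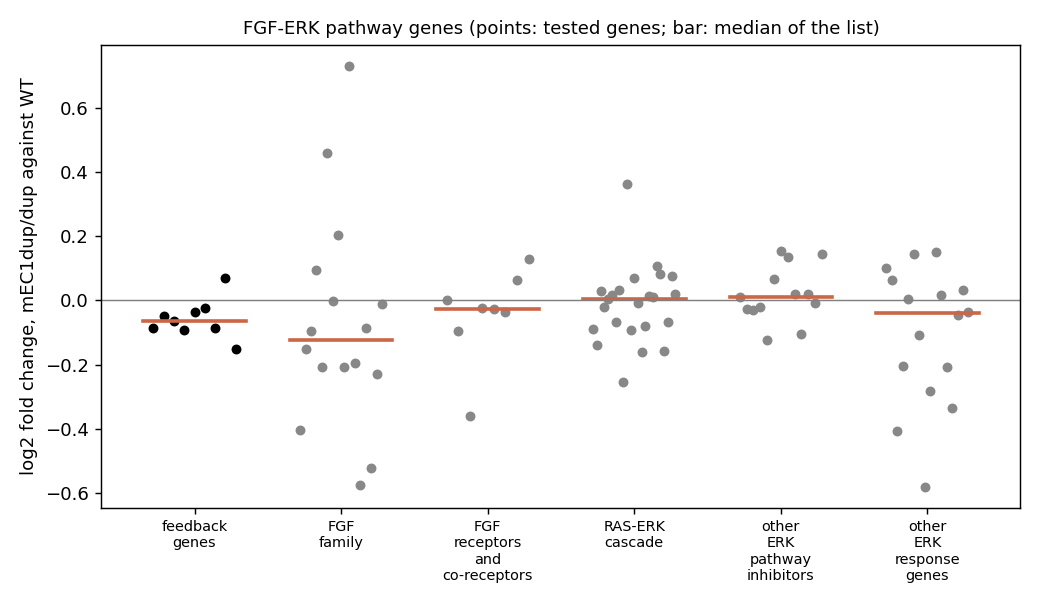
Log2 fold change (mEC1dup/dup against WT) of each tested gene in the feedback set (black) and in the other FGF-ERK lists (grey), with an orange bar at the median of each list. The feedback genes lie between -0.15 and 0.07, and the genes of the FGF family spread from -0.58 to 0.73.

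Across embryos, levels of the 9 genes were also set against the mean log2 CPM of each of 10 marker lists with genotype means removed. The smallest p of these 90 relations was that of *Spred1* with connective tissue mesenchyme (r = 0.846, rho = 0.879, exact permutation p = 0.000625, adjusted p = 0.0562), with r = 0.858 without the 2 embryos farthest from the median of the list. The next smallest p was that of *Dusp6* with epidermis (r = 0.717, rho = 0.77, exact permutation p = 0.00681, adjusted p = 0.17), with r = 0.642 without the 2 farthest. No relation passed an adjusted p of 0.05, and by size the r of *Spry4* with skeletal muscle (0.789) and of *Etv1* with connective tissue mesenchyme (0.774) came after that of *Spred1*.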

How the data were processed

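Bulk RNA-seq of whole pinna prominences at E14.5 covered 5 WT and 5 mEC1dup/dup embryos. The authors used fastp and FastQC on the reads, STAR for alignment to GRCm39 and featureCounts for gene counts, and deposited raw counts without normalization. The annotation release, strand setting and handling of multi-mapped reads are not given in the sources used here, and the labels and the methods name different library kits.

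GENCODE release M39 gave symbols to 49355 of 53465 gene identifiers, and unmatched genes held 0.111% of counts. Genes were filtered with filterByExpr, normalized by TMM and tested with edgeR (version 4.0.16, estimateDisp, glmQLFit, glmQLFTest; R version 4.3.3). The model held genotype alone, and p-values were adjusted over 16426 genes by Benjamini-Hochberg. The sources name limma and edgeR without the test. A prior count of 2 was added for the log2 CPM of embryos. SEs are the size of the fold change divided by the square root of F. The smallest chi-square per degree of freedom between replicates was 2.56, so no library was counted as a repeat of another. The steps were tested on simulated counts.

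Alternatives were DESeq2 (version 1.42.0), limma-voom (version 3.58.1) with and without sample weights, other normalizations, filters and thresholds, the replicate block, covariates (*Xist* or globin share), and fits without each embryo in turn. The fit of libraries with under 100 *Xist* counts was chosen after seeing the data.

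The 9 genes, the pathway lists and the marker lists were chosen with earlier results of these data known. Named genes are the 9, *Hmx1*, in each pathway list any gene called and the 3 with the largest log2 fold change not called, and the 5 genes most like the mean of the 9 by each measure. *Fgf3*, *Fgf8*, *Fgf11* to *Fgf14*, *Rps6ka3*, *Myod1*, *Myog*, *Sox9* and *Xist* were named outside that rule, after their values were seen. Promoters came from RefSeq (GRCm38.p6), a build other than that of the counts. Figures were drawn with matplotlib (version 3.10.9).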

Additional observations from a re-analysis of the deposited data

Results flagged for a closer look

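*Spry1* in mEC1dup/dup replicate 5 stood apart from the other embryos of its genotype, at 50.4 normalised CPM beside 36 to 40.1 in the others. The gap to the next embryo was 0.713 of the range of the group in CPM, just above the 95% critical value of 0.71 in Dixon's test for 5 samples. Of the 18 groups of 5 examined in CPM (9 genes in 2 genotypes) this was the only one past that value, and chance gives about 1 in 20. In log2 CPM replicate 5 stood at 5.657 and the others at 5.175 to 5.33, where the gap is a share of the range below 0.71. With *Xist* as a covariate the log2 fold change of *Spry1* turned to 0.17 (adjusted p = 0.644 in edgeR's quasi-likelihood test). The same library had 0 *Xist* counts, and without it the log2 fold change of *Spry1* was -0.18 (adjusted p = 0.21 in that test). Its part in the *Spry1* value was not tested.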

How the results depend on the processing

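In none of the 22 alternative fits was any of the 9 genes called in either direction, and the smallest adjusted p was 0.167 (*Spry4*, with the replicate block). Under each of the 3 other normalizations 8 of the 9 stayed below 0. Pathway genes called lower numbered 3 of 76 by DESeq2 (3.1% of all tested genes were called lower), 3 by limma-voom with sample weights (3.56%), 2 with the replicate block (*Ksr1* and *Rps6ka3*, 2.96%), 2 at an adjusted p of at most 0.1 (2.97%), and 0 to 1 when single embryos were left out (*Mapk3*, without WT replicate 3), where 0.723 to 2.87% of all genes were called lower. Members whose groups did not overlap numbered 0 to 1 when single embryos were left out (*Etv1* without WT replicate 4, *Spry2* without mEC1dup/dup replicate 4), where 5.68 to 8.21% of all genes did not overlap. An unadjusted p under 0.05 was reached by *Spry4* in 7 of the 22 fits (0.0126 without mEC1dup/dup replicate 5, 0.0187 with the replicate block, to 0.048 by limma-voom with sample weights). *Spry1* and *Spry2* (0.0194 and 0.0318) reached it once each. With *Xist* as a covariate the log2 fold change turned to 0.17 for *Spry1*, 0.0002 for *Spred2* and 0.14 for *Etv4*. With the share of embryonic globins as covariate it turned to 0.53 for *Spry1*, 0.0001 for *Spred1*, 0.057 for *Spred2*, 0.32 for *Dusp6*, 0.50 for *Etv1*, 0.29 for *Etv4*, 0.28 for *Etv5*, -0.051 for *Flrt3*, 0.22 for *Fgfr2*, -0.060 for *Ksr2*, -0.18 for *Spred3* and 0.54 for *Junb*. Both covariates differ with genotype, so over all tested genes the fits called 3 (1 lower, 2 higher) with *Xist* and 0 with globin, beside 434 (297 lower, 137 higher), and *Hmx1* had 0.34 (adjusted p = 0.921) with globin. In libraries with under 100 *Xist* counts (5 WT against 1 mEC1dup/dup, whose lone sample is assumed to vary as WT does) it turned to 0.24 for *Spry1*, 0.024 for *Spry4*, 0.031 for *Spred2*, 0.021 for *Dusp6*, 0.14 for *Etv4* and 0.014 for *Etv5*, and *Hmx1* had 0.99 (adjusted p = 0.279). Leaving out embryos turned *Spred2* to 0.0023 (without WT replicate 2) and *Etv4* to 0.027 (without mEC1dup/dup replicate 1), over ranges of -0.046 to 0.0023 and -0.12 to 0.027. Single embryos also moved uncalled values by over 1.5 times: *Spred1* to -0.0019 and *Spred3* to 0.088 (WT replicate 2 left out), *Etv5* to -0.057 (WT 1), *Dusp6* to -0.050 (mEC1dup/dup 4), *Fgfr2* to -0.049 (WT 3), *Fgf4* to -0.23, *Dusp9* to 0.092 and *Il17rd* to 0.083 (WT 4). *Fgf4* turned to 0.070 by limma-voom with sample weights. The cause of these turns was not tested. Replicate numbers were not taken as pairs, since 1 of 5 same-number correlations was under 0.1 (-0.0558, the others 0.14 to 0.345). The mean same-number correlation of 0.162 was nevertheless above that of other numbers (-0.040). The study states that its mouse replicates were siblings of separate litters, but the sample labels name no litter. With the replicate block, calls over all genes numbered 487 lower and 200 higher, and 4 of 10 embryos correlated best with the embryo of their own number. For pairs of the 9 genes the block leaves 120 arrangements, too few for a single pair to reach an adjusted p under 0.3, so it says nothing there. Among tested ligands, *Fgf3*, *Fgf4* and *Fgf20* had as few as 4 or 5 counts in a library, which limits their precision.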
